A study of Mus musculus with 35 samples.

Results

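The comparison was between 3 aortas that carried a dissected aneurysm after 7 days of angiotensin II (Ang II) and 11 aortas collected after 14 days (5 aortas) or 28 days (6 aortas) of the same infusion, 14 of the 35 arrays of the series, chosen by sample title. All mice were male ApoE-/- animals, 12 to 14 weeks old, which lack apolipoprotein E. The dissected group received Ang II at 1000 ng/kg/min from a subcutaneous minipump for 7 days, and the later groups received that dose for 14 or 28 days. A further 4 aortas with a non-dissected aneurysm after 7 days of Ang II, and 17 aortas of saline-infused mice (6, 6 and 5 at 7, 14 and 28 days), served for side-by-side values. Each array held the RNA of 1 suprarenal aorta, labelled with Cy5 after linear amplification, against a universal mouse reference RNA labelled with Cy3 by direct reverse transcription, and the dyes were never swapped. Values are log2 ratios of aorta over reference, so they describe a gene between arrays and not 1 gene against another. The labels state a dissection state for 7 day tissue alone; the 14 d and 28 d tissue is called aneurysm, with nothing said of whether it had dissected, so the later aortas are called later Ang II aortas here. Day of infusion and dissection differ together between the groups and cannot be told apart by this comparison. The non-dissected 7 d aortas share the infusion day of the dissected ones, but not their slides and mostly not their scan day.

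Ang II infusion in ApoE-/- mice is a widely used model of abdominal aortic aneurysm. In it, the medial layers of the suprarenal aorta tear early, blood enters the wall as an intramural haematoma, and the wall is afterwards remodelled by inflammatory cells and matrix-producing fibroblasts. Blood in the wall brings platelets, neutrophils and monocytes, and macrophages that take up red cells degrade haem with haem oxygenase.

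On the 35 arrays 45.0% to 84.8% of spots were well above background in the aorta channel, with 47.2% to 50.5% on the 3 dissected arrays. The highest share, 84.8%, belonged to Ang II 14 d replicate 4. The other arrays of its group lay between 51.1% and 62.2%. Log2 ratios correlated at 0.875 to 0.952 among the dissected arrays, at 0.820 to 0.942 among the 14 d arrays and at 0.718 to 0.896 among the 28 d arrays, where replicate 5 stood farthest from the others. All 3 dissected arrays were scanned on the second of 2 scan days, together with 6 of the 11 later arrays, and each shared a slide with 1 later array. Of the non-dissected 7 d arrays only replicate 3 was scanned on that day, and none shared a slide with a dissected array. Results were therefore also obtained without both arrays that stood apart, within the second scan day, and with slide as a block. Smooth muscle myosin heavy chain (Myh11), which defines the aortic wall, was well above background on all 14 arrays, as were adiponectin (Adipoq) of fat cells and Ucp1 of brown fat.

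Of 18671 genes tested, 4664 (25%) differed between dissected and later Ang II aortas at an adjusted p below 0.05 (limma, Benjamini-Hochberg over all genes), 2458 (13.2%) higher and 2206 (11.8%) lower in dissected aortas. At least 2-fold differences were called for 588 higher and 777 lower genes. For 2394 genes (12.8% of those tested) the call came with no overlap between the 3 dissected and the 11 later arrays, 1188 higher and 1206 lower; without regard to the call, 6.74% of genes were higher and 7.27% lower without overlap. The median difference over all genes was -0.04. The split between directions rested on the correction for signal intensity: with median centring in place of loess 4248 genes were called, 12.2% of them higher in place of 52.7%, and the median of all genes moved to -0.27. Differences named below as higher are therefore relative to that centre. The count was 2744 with slide as a block, 3735 within the second scan day, 5354 without both arrays that stood apart, and 2742 without dissected replicate 1.

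Each later day was also taken alone. Dissected aortas differed from 14 d aortas in 3502 genes (18.8%), 10.4% of all being higher and 8.4% lower. They differed from 28 d aortas in 4389 genes (23.5%), 12% being higher and 11.5% lower, and both comparisons use the same dissected arrays. Between 28 d and 14 d aortas 1 gene (0.00536%) was called, Spon2, at -1.46 ± 0.24 (28 d minus 14 d, adjusted p = 0.0174), with 2169 genes at an unadjusted p below 0.05; leaving out an array moved this count between 0 and 6. Spon2 was named after its values were seen. Non-dissected 7 d aortas differed from the later ones in 1116 genes (5.98%). Dissected differed from non-dissected 7 d aortas in 1406 genes (7.53%), 2.75% of all being higher and 4.78% lower. With slide as a block this count was 312. These 7 d groups shared no slide and differed mostly in scan day, and no fit of this contrast held scan day as a block. With each Ang II group taken relative to saline aortas of its own day, 2797 genes (15%) differed between dissected and later aortas. Counts for the non-dissected 7 d aortas follow with each list, to be read beside the shares of all genes given here. Both 7 d groups are measured against the same 11 later arrays. In non-dissected 7 d aortas 734 genes (3.93%) were higher and 382 (2.05%) lower than in later aortas. These counts rested on single arrays: 311 were higher and 41 lower without non-dissected replicate 1, and 209 higher and 21 lower without non-dissected replicate 2.

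Cell cycle genes had the most rises of the 40 lists. Of 36 cell cycle genes 30 were higher in dissected than in later aortas, against 13.2% of all genes, and none was lower; the median difference was 1.08 (-0.04 over all genes), and for 20 members no dissected array overlapped a later one (6.74% of all genes were higher without overlap). Birc5 (survivin), which holds the chromosomal passenger complex at the centromere, had log2 ratios of -0.36, -0.48 and -0.65 in dissected aortas, against -3.83 to -1.90 (median -2.92) in the later ones, a difference of 2.51 ± 0.29 (SE, adjusted p = 6.62e-07). All 3 dissected arrays lay above every later array. Cdc20, the activator of the anaphase-promoting complex, read -0.77, -0.90 and -1.02 in dissected aortas, against -3.66 to -2.08 (median -3.00) in later ones, again with no overlap (difference 2.12 ± 0.25, adjusted p = 1.09e-06). For Cenpe, a kinetochore motor, the values were -1.50, -1.68 and -1.65 in dissected aortas and -4.80 to -2.70 (median -3.79) in later aortas (difference 2.26 ± 0.31, adjusted p = 6.31e-06). Mki67, the gene of the Ki-67 proliferation antigen, gave -0.96, -1.91 and -1.19 in dissected aortas, against -4.69 to -1.80 (median -3.33) in later aortas, with 1 later array (28 d replicate 5, at -1.80) above the lowest dissected array (difference 2.16 ± 0.40, adjusted p = 0.000181). Pcna, at 0.13, and Cdk1, at 0.31, were among the 6 members that did not pass the test.

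The list was high in the non-dissected aneurysms of day 7 too. There 27 of 36 members were higher than in later aortas (3.93% of all genes were higher in that comparison), with a median difference of 1.14, and none of the 36 was called between dissected and non-dissected 7 d aortas, where the median difference was 0.09. Birc5 read -0.60, -0.78, -1.46 and -1.54 in non-dissected 7 d aortas. The mean level of the list, in log2 ratio, was -1.32, -1.66 and -1.39 in dissected aortas and -1.80 to -1.32 in non-dissected 7 d aortas, against -3.26 to -1.95 in the later ones. With median centring in place of loess 18 members were called, all higher, at a median of 0.64; with slide as a block 24 were called at a median of 1.03, and the differences within the 3 slides that held a dissected and a later array had medians of 1.10, 0.63 and 1.62.

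Promoters of the cell cycle members with the largest rises are shown because these genes moved together and because many such promoters carry CCAAT boxes, bound by NF-Y, and the cell cycle homology region, bound by the DREAM and MuvB complexes. Each line gives the 150 bases before the transcription start, 5′ to 3′ on the gene's strand, from RefSeq (GRCm38.p6), with CCAAT or its reverse complement ATTGG and TTTGAA or its reverse complement TTCAAA in capitals. They lie at chr11:117849087-117849236, plus strand (Birc5), chr3:135212413-135212562, plus strand (Cenpe), chr7:135716380-135716529, minus strand (Mki67) and chr4:118437344-118437493, minus strand (Cdc20).
Birc5: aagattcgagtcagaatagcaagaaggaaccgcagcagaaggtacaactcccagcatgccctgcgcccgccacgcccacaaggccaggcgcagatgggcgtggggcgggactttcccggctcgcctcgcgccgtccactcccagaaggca
Cenpe: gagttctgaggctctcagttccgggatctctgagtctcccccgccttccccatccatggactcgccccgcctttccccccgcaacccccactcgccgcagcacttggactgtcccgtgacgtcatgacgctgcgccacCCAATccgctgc
Mki67: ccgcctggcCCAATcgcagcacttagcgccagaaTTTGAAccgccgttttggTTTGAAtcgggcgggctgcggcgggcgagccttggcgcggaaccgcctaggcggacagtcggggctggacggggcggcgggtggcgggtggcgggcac
Cdc20: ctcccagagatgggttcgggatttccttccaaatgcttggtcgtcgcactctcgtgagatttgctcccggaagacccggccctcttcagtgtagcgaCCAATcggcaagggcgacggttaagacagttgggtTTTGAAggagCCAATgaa
Of the 4 windows, that of Cdc20 holds 2 CCAAT motifs and 1 TTTGAA, that of Mki67 1 and 2, that of Cenpe 1 CCAAT alone, and that of Birc5 neither. Of the 36 members 30 had a promoter in the table. A CCAAT motif on either strand was present in 23 of these (76.7%), against 27.7% of all 27025 genes with a promoter window of that length, and TTTGAA in 9 (30.0%), against 10.5%. These matches describe the letters in the windows and are no evidence of binding.

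**Figure D1:**
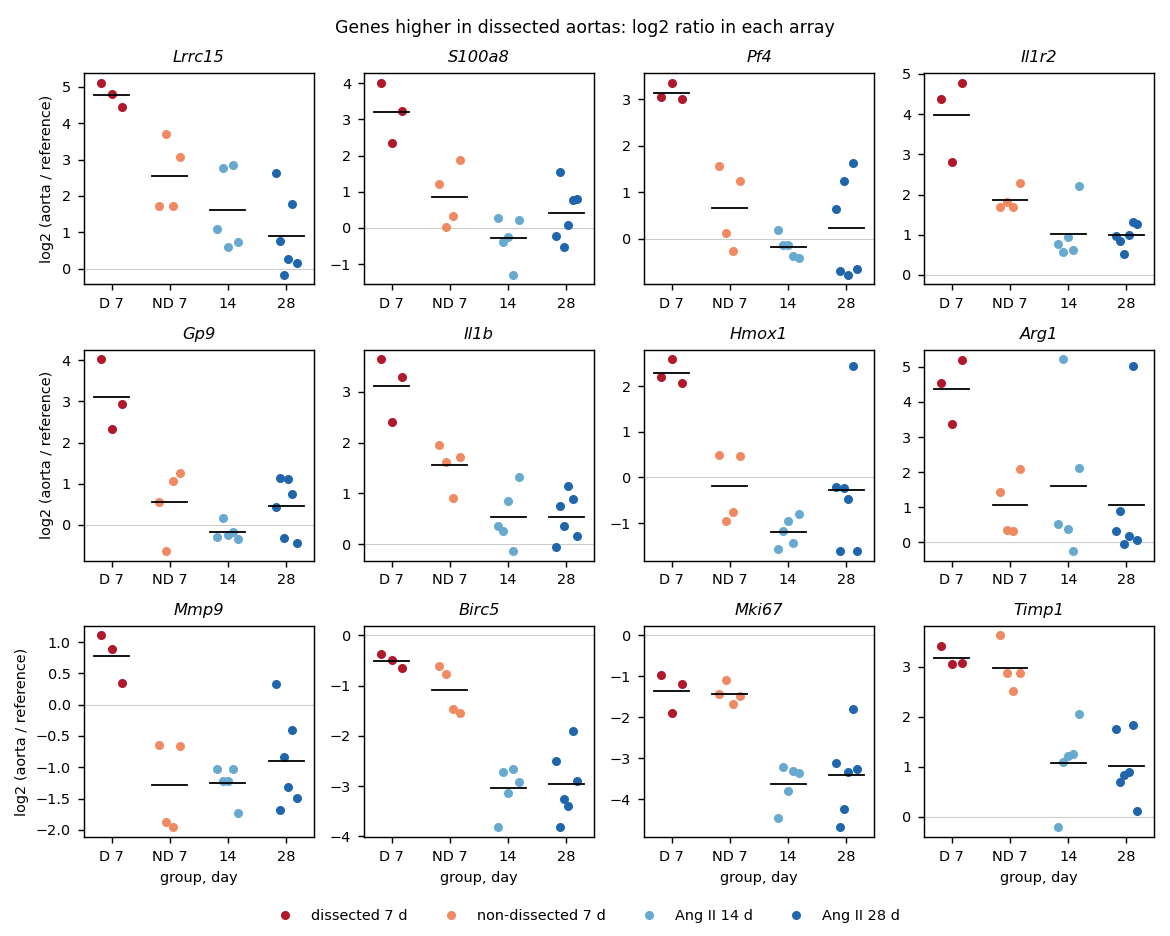
Log2 ratio of aorta over reference (vertical axis) in each array for 12 genes, with dissected 7 d (D 7, red) at the left, then non-dissected 7 d (ND 7, orange), Ang II 14 d and 28 d (blue); bars are group means. Pf4 and Gp9 are high in the 3 dissected arrays alone, whereas Birc5, Mki67 and Timp1 are high in both 7 d groups, and 28 d replicate 5 reaches the dissected values for Hmox1 and Arg1.

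Platelets carry chemokines in their alpha granules and the GPIb-IX-V receptor for von Willebrand factor on their surface. Of 11 platelet genes tested 5 were higher in dissected aortas (13.2% of all genes were) and none was lower, at a median of 0.47. Pf4, an alpha-granule chemokine, read 3.05, 3.35 and 3.00 in dissected aortas, against -0.78 to 1.63 (median -0.15) in later aortas; every dissected array lay above every later one, and the difference was 3.11 ± 0.46 (adjusted p = 1.46e-05). For Gp9, the glycoprotein IX subunit of that receptor, the ratios were 4.03, 2.34 and 2.94 in dissected aortas and -0.43 to 1.15 (median -0.17) in later ones (difference 2.97 ± 0.63, adjusted p = 0.00075), with no overlap. Treml1, a receptor stored in platelet granules, differed by 2.22 ± 0.51 (adjusted p = 0.00164) and Ppbp, another granule chemokine, by 2.53 ± 0.80 (adjusted p = 0.0184), both with no overlap. Ppbp lost its call without dissected replicate 3 (adjusted p = 0.06) or dissected replicate 1 (adjusted p = 0.151). Gp6 was the fifth, at 0.47, while Itga2b, at 0.09, and Gp1ba, at 0.04, did not pass. Members without a call reached down to -0.69, and 1 of them lay lower in every dissected than in every later array (7.27% of all genes did). For 2 members no array of 1 side was well above background. Over all genes this side was nearly always the dissected one, with its fewer arrays (3452 genes, against 6 for the later side).

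In non-dissected 7 d aortas none of the platelet genes differed from later aortas, with a median of 0.08. Pf4 read 1.56, 0.12, -0.27 and 1.24 there, and the difference between dissected and non-dissected aortas was 2.47 (adjusted p = 0.00458) for Pf4 and 2.54 (adjusted p = 0.0304) for Gp9. The mean platelet level of the array was 1.99, 1.23 and 1.47 in dissected aortas, 0.13 to 0.76 in non-dissected 7 d aortas and 0.11 to 1.05 in later aortas. Without dissected replicate 1 or without dissected replicate 3 the list had 3 calls in place of 5, and 3 with slide as a block. Of 6 erythroid genes tested none was called, with Hba-a1 (alpha globin) at 0.61 (adjusted p = 0.187) and Alas2, the erythroid enzyme that starts haem synthesis, at 0.62 (adjusted p = 0.286). For 3 of the 6 no array of 1 side was well above background, so the lack of a call says little about those 3.

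Hmox1, haem oxygenase 1, which opens the haem ring, was high in all 3 dissected aortas, at 2.20, 2.59 and 2.07. The later aortas ran from -1.62 to 2.44 (median -0.96), and the difference was 3.02 ± 0.55 (adjusted p = 0.000173). A single later array, 28 d replicate 5, reached 2.44, inside the dissected range, and the next later array lay at -0.21. Non-dissected 7 d aortas read 0.49, -0.95, -0.75 and 0.47, and dissected minus non-dissected was 2.47 (adjusted p = 0.0165). Cd163, the macrophage receptor for haemoglobin bound to haptoglobin, differed by 0.99 ± 0.22 (adjusted p = 0.0011), with no overlap. Within the 3 shared slides the Hmox1 differences were -0.23, 4.15 and 2.54, the first against 28 d replicate 5. Hmox1 and Cd163 were the 2 called members of 14 genes of haem uptake and breakdown, a share near the 13.2% of all genes called higher, and the list's median was 0.15 (-0.23 with median centring in place of loess). The haem genes had no call in non-dissected 7 d against later aortas (median 0.01), and 2 rises and no fall in dissected against non-dissected 7 d aortas (median 0.30).

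Neutrophil genes were higher as well. Of 13 tested 6 were higher in dissected aortas (13.2% of all genes were) and none was lower, at a median of 1.09. S100a8, a subunit of calprotectin, the calcium-binding protein that fills the neutrophil cytosol, gave 4.01, 2.34 and 3.22 in dissected aortas, against -1.30 to 1.54 (median 0.08) in later ones. The groups did not overlap, and the difference was 3.13 ± 0.77 (adjusted p = 0.003). Its partner S100a9 read 7.28, 7.16 and 6.83 in dissected aortas and 2.34 to 5.65 (median 4.14) in later aortas (difference 2.73 ± 0.73, adjusted p = 0.00578). Csf3r, the receptor for granulocyte colony-stimulating factor, had 3.94, 2.29 and 3.27 in dissected aortas, against 0.32 to 1.33 (median 0.66) in later ones (difference 2.42 ± 0.42, adjusted p = 0.000104). Chil3 (Ym1), a chitinase-like protein of neutrophils and of some macrophages, differed by 2.56 ± 0.65 (adjusted p = 0.00406), and Lcn2 and Mpo completed the calls at 1.46 and 1.29. Precursor genes Ngp, at -0.36, Camp, at 0.25, and Ltf, at 0.32, did not pass. S100a8 did not differ between dissected and non-dissected 7 d aortas at the threshold, with a difference of 2.33 (adjusted p = 0.112), and Csf3r did, with 1.93 (adjusted p = 0.0146). The list had 6 calls without each dissected replicate in turn, within the second scan day and with slide as a block. For neutrophil genes, dissected minus non-dissected 7 d aortas gave 1 rise and no fall at a median of 0.84, and non-dissected 7 d minus later aortas gave 1 rise and no fall at 0.45.

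Of 23 monocyte and macrophage genes 12 were higher (13.2% of all genes were) and none lower, at a median of 0.95. No macrophage gene was called between non-dissected 7 d and later aortas (median 0.38), against 1 rise and no fall between dissected and non-dissected 7 d aortas (median 0.55). Fcgr1, the high-affinity receptor for IgG, read 3.34, 2.25 and 3.28 in dissected aortas, against 0.25 to 2.03 (median 1.10) in later aortas, with no overlap (difference 1.97 ± 0.43, adjusted p = 0.000926). Trem2, a lipid receptor of foamy macrophages, read 3.03, 2.12 and 2.70 in dissected aortas and -0.91 to 2.14 (median 0.41) in later ones, with 1 later array inside the dissected range (difference 2.18 ± 0.44, adjusted p = 0.000492). Fcer1g, the common signalling chain of activating Fc receptors, differed by 1.66 ± 0.34 (adjusted p = 0.000563). Arg1, arginase of alternatively activated macrophages, was uneven: 4.54, 3.39 and 5.20 in dissected aortas, against -0.25 to 5.22 (median 0.39) in later aortas. The groups overlapped through 14 d replicate 2, at 5.22, and 28 d replicate 5, at 5.01, while the other 9 later arrays lay at 2.13 or below. The Arg1 difference was 3.04 ± 0.90 (adjusted p = 0.0123), with the call lost without dissected replicate 1 (adjusted p = 0.0621) or dissected replicate 3 (adjusted p = 0.0874). Within the shared slides it was -0.47, 2.85 and 5.01, the first against 28 d replicate 5. The general markers Cd68, at 0.95 (adjusted p = 0.0441), and Adgre1, at 0.78 (adjusted p = 0.0492), passed narrowly and each lost its call in 9 of the 14 fits that left out an array, with dissected replicates 1 and 3 among them (adjusted p up to 0.367 and 0.261). Spp1, osteopontin, did not pass (1.62 ± 0.83, adjusted p = 0.158). Without dissected replicate 1, and likewise without dissected replicate 3, the list had 5 calls; it had 4 with slide as a block and 6 within the second scan day.

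Among the 15 largest rises 6 genes lay outside all lists. Il1r2, the decoy receptor that binds interleukin 1 without signalling, gave 4.37, 2.81 and 4.78 in dissected aortas, against 0.53 to 2.20 (median 0.95) in later ones, with no overlap (difference 2.99 ± 0.40, adjusted p = 4.8e-06). Fgr, a Src-family kinase of myeloid cells, differed by 2.97 ± 0.41, Cd300lf, an inhibitory myeloid receptor, by 2.97 ± 0.58, and Mefv (pyrin), an inflammasome sensor, by 2.73 ± 0.53 (adjusted p = 6.07e-06, 0.000318 and 0.000351, in that order). Cyp4f18, a cytochrome P450 that inactivates leukotriene B4 in mouse neutrophils, differed by 2.40 ± 0.34 (adjusted p = 9.99e-06), and Ddit4l, an inhibitor of mTOR signalling, by 2.79 ± 0.37 (adjusted p = 4.05e-06). Other probes of Il1r2, Cd300lf and Ddit4l gave smaller differences, down to 0.40, 0.94 and 0.87. In bulk tissue, more cells of a type and more RNA per cell cannot be told apart.

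Among 23 cytokines and chemokines 6 were higher and 1 lower (13.2% of all genes were higher and 11.8% lower). Il1b, interleukin 1 beta, read 3.64, 2.40 and 3.29 in dissected aortas, against -0.14 to 1.32 (median 0.37) in later aortas; the groups did not overlap and the difference was 2.57 ± 0.50 (adjusted p = 0.000333). Ccl7, a ligand of the monocyte receptor CCR2, differed by 2.16 ± 0.59 (adjusted p = 0.00767), also with no overlap, and lost its call without dissected replicate 3 (adjusted p = 0.0878). Cxcl5, a neutrophil attractant, differed by 1.46 ± 0.43 (adjusted p = 0.0119), although it was well above background on 2 of 3 dissected and 2 of 11 later arrays, and the call was lost without dissected replicate 1 (adjusted p = 0.074) or dissected replicate 3 (adjusted p = 0.121). Il6, at 0.65 (adjusted p = 0.26), and Ccl2, at 0.58 (adjusted p = 0.35), did not pass. Cxcl9, an interferon-gamma-induced attractant of T cells, was the member that fell, to 1.44, 0.93 and 1.72 in dissected aortas, against 1.25 to 4.03 (median 2.55) in later aortas (-1.40 ± 0.51, adjusted p = 0.0408), and its call was lost in 8 of the 14 fits that left out an array, each dissected replicate among them (adjusted p up to 0.175). Cxcl9 also lost it on the processed signals (-0.19, adjusted p = 0.779) and with the authors' series table (-0.15, adjusted p = 0.834). Between non-dissected 7 d and later aortas cytokine genes had 2 rises and no fall (median 0.41), and between dissected and non-dissected 7 d aortas no call (median 0.21).

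Interferon response genes had 6 rises and 2 falls of 21, the falls below the 11.8% of all genes called lower (13.2% were higher). There was 1 rise when slide was a block and none with median centring in place of loess. Oas2 and Oas1a, sensors of double-stranded RNA, were higher by 1.36 ± 0.30 and 1.04 ± 0.25, and Mx2 by 1.03 ± 0.26, among 6 rises and 2 falls of 21 members (adjusted p = 0.00106, 0.00261 and 0.00404, in that order); the Mx2 call was lost without dissected replicate 2 (adjusted p = 0.0553). Gbp2, a guanylate-binding protein induced by interferon gamma, was lower, at -0.85 ± 0.22 (adjusted p = 0.00526), with no overlap, and lost its call without dissected replicate 2 (adjusted p = 0.0551). H2-Aa, an alpha chain of MHC class II, read 2.75, 1.92 and 1.98 in dissected aortas, against 3.19 to 5.48 (median 3.81) in later aortas (difference -1.82 ± 0.44, adjusted p = 0.00291). It was the only call among 10 genes of class II presentation, whose median was 0.03 (11.8% of all genes were lower). On the scanner's processed signals the H2-Aa difference turned to 0.0456, and with the authors' series table to 0.0893. None of 13 T cell genes and none of 12 B cell genes was called, at medians of -0.19 and -0.28. In each of these 2 lists 5 genes were not well above background on any array of 1 side, over all genes nearly always the dissected side (3452 against 6). The interferon genes had 2 rises and no fall in non-dissected 7 d against later aortas (median 0.17), and no call in dissected against non-dissected 7 d aortas (median 0.04). Single later arrays carried high lymphocyte levels (up to 1.67 for the T cell list and 2.42 for the B cell list).

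Complement genes went both ways. Properdin (Cfp), which stabilises the alternative convertase and is released by neutrophils, gave 3.82, 4.18 and 3.41 in dissected aortas, against 1.32 to 3.30 (median 2.06) in later ones, with no overlap (difference 1.72 ± 0.32, adjusted p = 0.000203). C1s1, the protease of the first component, was lower, at -1.40 ± 0.21 (adjusted p = 1.46e-05), and C7, of the membrane attack complex and outside the list, at -2.42 ± 0.49 (adjusted p = 0.000512). C3ar1, the anaphylatoxin receptor, was higher at 1.11 ± 0.29 (adjusted p = 0.00573), a call lost without dissected replicate 3 (adjusted p = 0.0742) or dissected replicate 1 (adjusted p = 0.0926). The list of 13 had 4 rises and 3 falls (13.2% of all genes were higher and 11.8% lower). It had 1 rise without dissected replicate 1, without dissected replicate 3 or within the second scan day. For complement genes, dissected minus non-dissected 7 d aortas gave 1 rise and 2 falls at a median of -0.06, and non-dissected 7 d minus later aortas gave 1 rise and no fall at 0.06.

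The sign of a list's median changed under at least 1 of the 5 scalings tried for 19 lists. Median centring in place of loess put below 0 the medians of the interferon response (-0.21), antigen presentation by MHC class II (-0.21), immediate early genes (-0.19), haem uptake and breakdown (-0.23), matrix proteases and inhibitors (-0.34), collagen processing enzymes (-0.06) and endothelium (-0.09), and put bone and cartilage just above 0. The authors' series table put above 0 the medians of complement (0.66), elastic fibre components (0.44), coagulation and fibrinolysis (0.11), fibroblasts and adventitia (0.11), matricellular proteins and proteoglycans (0.05), fibrillar and network collagens (0.04), oxidative stress response (0.03), brown fat (0.31), sympathetic neurons and chromaffin cells (0.57) and white fat, the last at 0.15 with scale normalization between arrays. That scaling put kidney tubule genes below 0 (-0.02). The medians of the cell cycle, platelet, neutrophil, macrophage, cytokine, oxidative phosphorylation, fatty acid oxidation, cholesterol, glycolysis and TGF-beta lists kept their sign under all 5 scalings tried.

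**Figure D2:**
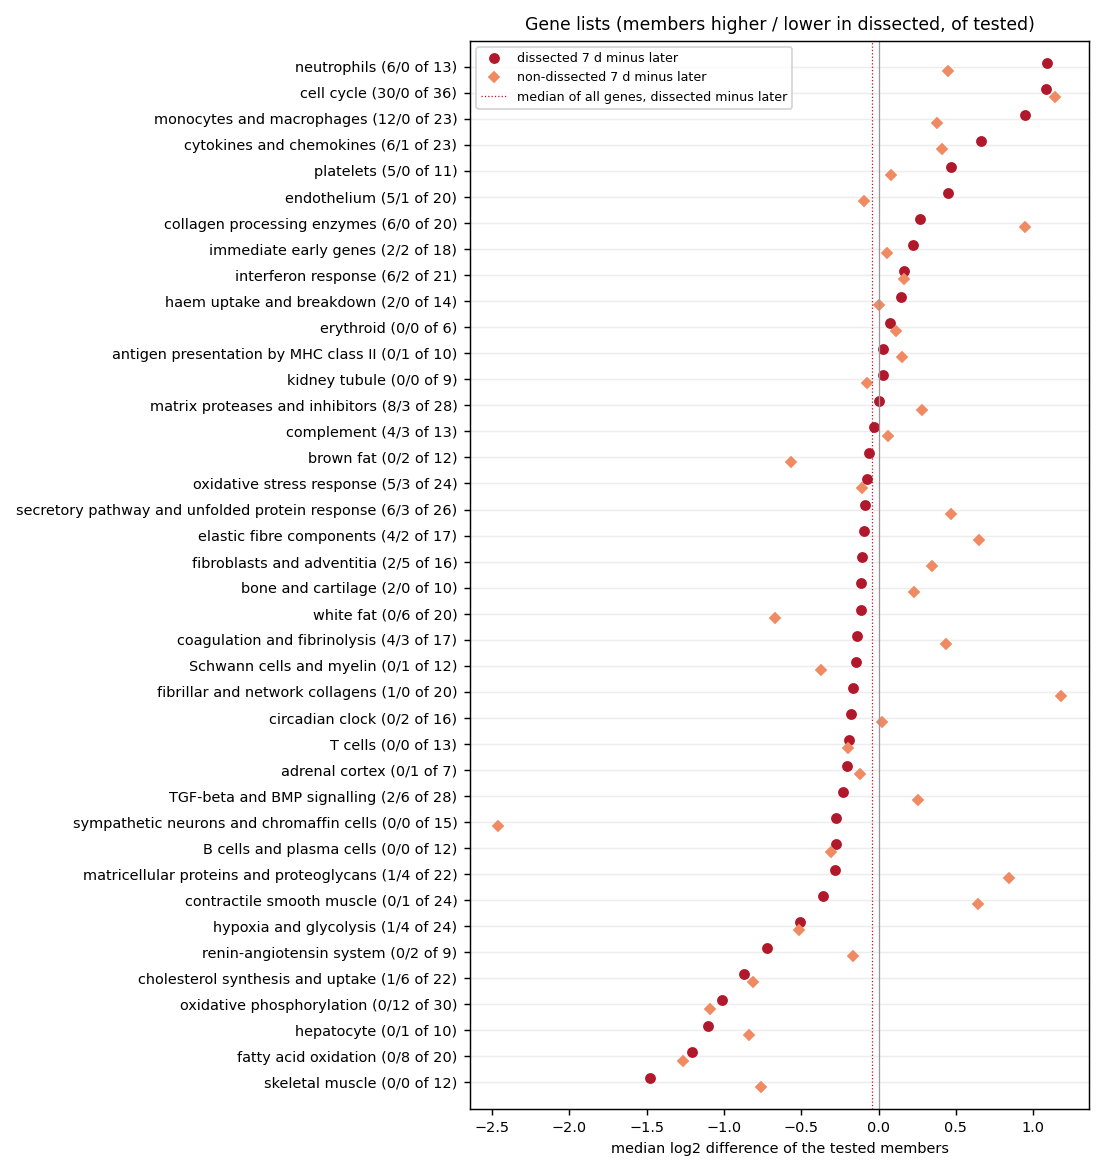
Median log2 difference of the tested members of 40 gene lists (horizontal axis), dissected 7 d minus later aortas (red circles) above non-dissected 7 d minus later aortas (orange diamonds); both use the same 11 later arrays. Labels give members higher and lower in dissected aortas; cell cycle lies at 1.08 and 1.14, collagens at -0.16 and 1.18.

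Matrix genes differed between the dissected and the non-dissected aneurysms of day 7. Of 20 fibrillar and network collagens 1 was higher in dissected than in later aortas and none was lower, at a median of -0.16. Over all genes 13.2% were higher and 11.8% lower. In non-dissected 7 d aortas 7 were higher than in later aortas (median 1.18), against 3.93% of all genes. The 734 rises over all genes in that comparison became 311 or 209 without non-dissected replicate 1 or 2. Directly between dissected and non-dissected 7 d aortas 4 collagens were lower and 1 was higher, at a median of -1.31 (4.78% of all genes were lower there and 2.75% higher). The called member was Col5a3, a chain of type V collagen, at 3.22, 3.62 and 3.59 in dissected aortas and 0.25 to 2.60 (median 1.65) in later ones, with no overlap (difference 1.73 ± 0.34, adjusted p = 0.000424); its second probe gave 0.33. Col1a1 read 3.74, 3.62 and 2.43 in dissected aortas, 4.56, 4.96, 3.96 and 4.10 in non-dissected 7 d aortas and 0.73 to 4.14 (median 2.91) in later ones, a dissected minus later difference of 0.52 (adjusted p = 0.6). Col3a1 differed by -0.32 (adjusted p = 0.721).

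Of 20 collagen processing enzymes 6 were higher in dissected than in later aortas (13.2% of all genes were), none lower, at a median of 0.27. Non-dissected 7 d minus later aortas gave 11 rises and no fall of collagen processing genes (median 0.95), against 3.93% of all genes higher. Dissected minus non-dissected 7 d aortas gave no rise and 2 falls (median -0.47), against 4.78% of all genes lower. Fkbp10 and Loxl2 read 1.17 to 2.09 and 2.31 to 2.78 in non-dissected 7 d aortas, against -1.17 to 0.42 (median -0.12) and -0.34 to 1.42 (median 1.07) in later aortas. Serpinh1 (HSP47), the procollagen chaperone, read 4.16, 3.65 and 3.80 in dissected aortas, against 0.79 to 3.11 (median 1.62) in later aortas, with no overlap (difference 1.96 ± 0.48, adjusted p = 0.00288). Fkbp10, a procollagen prolyl isomerase, was higher by 1.92 ± 0.38 and Loxl2, a lysyl oxidase-like crosslinking enzyme, by 1.62 ± 0.34 (adjusted p = 0.000431 and 0.000749). P4ha2, a prolyl 4-hydroxylase subunit, passed at 0.79 (adjusted p = 0.0331), a call lost without 14 d replicate 5 (adjusted p = 0.0538), dissected replicate 1 (adjusted p = 0.109) or dissected replicate 2 (adjusted p = 0.167). The list had 3 rises without dissected replicate 1 and with slide as a block, and its median was -0.06 with median centring in place of loess. Lox, the main crosslinking oxidase of aortic collagen and elastin, read -0.84, -1.71 and -1.36 in dissected aortas and 1.51, 1.65, 0.84 and 1.29 in non-dissected 7 d aortas, against -1.89 to 0.68 (median -0.78) in later aortas. Dissected minus later was -0.51 (adjusted p = 0.469), which did not pass, non-dissected minus later was 2.12 (adjusted p = 0.00237), and dissected minus non-dissected was -2.62 (adjusted p = 0.00354).

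Of 22 matricellular proteins and proteoglycans 4 were lower (11.8% of all genes were) and 1 higher, at a median of -0.28. Between non-dissected 7 d and later aortas matricellular genes had 4 rises and no fall (median 0.85), against 3.93% of all genes higher. Between dissected and non-dissected 7 d aortas they had no rise and 5 falls (median -1.28), against 4.78% of all genes lower. Lumican (Lum), which binds collagen fibrils, read 5.18, 4.72 and 3.94 in dissected aortas, against 5.23 to 7.92 (median 6.69) in later aortas, with no overlap (difference -2.15 ± 0.53, adjusted p = 0.0032). In the non-dissected group of day 7 Lum read 7.45, 7.66, 6.70 and 6.46, and dissected minus non-dissected was -2.45 (adjusted p = 0.0135). Biglycan (Bgn) differed by -1.74 ± 0.60 (adjusted p = 0.0326), fibromodulin (Fmod) by -2.09 ± 0.73 (adjusted p = 0.0339) and decorin (Dcn) by -1.52 ± 0.53 (adjusted p = 0.0324), with overlapping arrays. These calls were less firm: Bgn lost its call without 14 d replicate 1 (adjusted p = 0.0514), dissected replicate 1 (adjusted p = 0.0895), dissected replicate 2 (adjusted p = 0.0903) or dissected replicate 3 (adjusted p = 0.113). Fmod lost it without dissected replicate 2 (adjusted p = 0.0536), dissected replicate 1 (adjusted p = 0.0966) or dissected replicate 3 (adjusted p = 0.175). Dcn lost it without dissected replicate 2 (adjusted p = 0.12) or dissected replicate 3 (adjusted p = 0.14). Second probes of Bgn and Dcn gave 0.02 and -0.02. The glycoproteins periostin (Postn, -0.35, adjusted p = 0.629), tenascin C (Tnc, 0.41, adjusted p = 0.518), thrombospondin 1 (Thbs1, -0.78, adjusted p = 0.169) and fibronectin (Fn1, -1.02, adjusted p = 0.154) did not pass. Without dissected replicate 2, or without dissected replicate 3, and with slide as a block, 1 member was called lower; relative to saline aortas of the same day none was.

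Elastin (Eln) differed by 0.62 (adjusted p = 0.199). Around it Efemp2 (fibulin 4), which elastic fibre assembly requires, was higher by 1.72 ± 0.43 (adjusted p = 0.00327) and Emilin2 by 1.05 ± 0.27 (adjusted p = 0.00431), both with no overlap. The microfibril gene Fbn2 was higher by 1.26 ± 0.34 (adjusted p = 0.00628), with 3 later arrays inside the dissected range. Emilin2 lost its call without dissected replicate 1 (adjusted p = 0.066), and Fbn2 without dissected replicate 1 (adjusted p = 0.167). Fbln1 (fibulin 1) was lower, at -1.71 ± 0.57 (adjusted p = 0.0275), a call lost without dissected replicate 1 (adjusted p = 0.074) or dissected replicate 3 (adjusted p = 0.188). In all 4 of 17 elastic fibre genes were higher and 2 lower (13.2% of all genes were higher and 11.8% lower). Without dissected replicate 1 it was 2 and 0, and with slide as a block 2 and 0. The elastic fibre genes had 4 rises and no fall in non-dissected 7 d against later aortas (median 0.65), against 3.93% of all genes higher. In dissected against non-dissected 7 d aortas they had no rise and 1 fall (median -0.53), where 4.78% of all genes were lower.

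Of the proteases and their inhibitors 8 of 28 were higher and 3 lower (13.2% of all genes were higher and 11.8% lower), at a median of 0.00. Mmp9, gelatinase B, which neutrophils and macrophages release, read 1.11, 0.89 and 0.34 in dissected aortas, against -1.73 to 0.33 (median -1.22) in later aortas. The lowest dissected array lay just above the highest later one, and the difference was 1.85 ± 0.36 (adjusted p = 0.000357). Non-dissected 7 d aortas gave -0.64, -1.88, -1.96 and -0.66, so that dissected minus non-dissected was 2.06 (adjusted p = 0.00331). Mmp14, the membrane-type collagenase, was higher by 1.85 ± 0.35 (adjusted p = 0.000279) and Adam8, a leukocyte metalloprotease, by 1.96 ± 0.50 (adjusted p = 0.00392). The Adam8 call was lost without dissected replicate 1 (adjusted p = 0.0507). Mmp2 (-0.94, adjusted p = 0.0569) and Mmp3 (-1.16, adjusted p = 0.246) did not pass. Mmp12 and Mmp13 were not well above background on any dissected array, and were so on 5 and 8 of the 11 later arrays; neither was called. The list's falls numbered 5 without 28 d replicate 6. For protease and inhibitor genes, dissected minus non-dissected 7 d aortas gave 3 rises and 3 falls at a median of -0.11, and non-dissected 7 d minus later aortas gave 3 rises and no fall at 0.28.

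The inhibitors went opposite ways. Timp1 read 3.41, 3.05 and 3.07 in dissected aortas, against -0.21 to 2.05 (median 1.09) in later aortas, with no overlap (difference 2.13 ± 0.52, adjusted p = 0.00303). Non-dissected 7 d aortas read 3.62, 2.87, 2.51 and 2.86, with a difference from dissected ones of 0.21 (adjusted p = 0.902). Timp3, the matrix-bound inhibitor, fell to -0.84, -0.29 and -1.71 in dissected aortas, against 0.14 to 2.87 (median 0.99) in later aortas (difference -2.07 ± 0.41, adjusted p = 0.000413). No dissected array overlapped a later one. Non-dissected 7 d aortas read 2.50, 2.38, 1.82 and 1.32, and dissected minus non-dissected was -2.95 (adjusted p = 0.000472). A second probe of Timp1 gave 0.71.

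Fibroblast genes had calls in both directions, the rises at about the share of all genes. Lrrc15, a membrane protein of TGF-beta-activated fibroblasts, showed the largest rise of all genes that met the naming rule: 5.11, 4.81 and 4.44 in dissected aortas, 1.73, 3.70, 1.72 and 3.06 in non-dissected 7 d aortas and -0.17 to 2.84 (median 0.75) in later aortas. Dissected minus later was 3.53 ± 0.45 (adjusted p = 2.52e-06), dissected minus non-dissected 2.24 (adjusted p = 0.00887), and a second probe gave 1.02 for the difference from later aortas. Within slides the Lrrc15 differences were 3.32, 3.71 and 4.16. Of 134 called genes chosen for naming 121 had the sign of their difference in all 3 slides. The 13 that did not were Hmox1, Arg1, Adam8, Cd68, Clock, Cyba, F13a1, F3, Mx2, Ncf4, Oas1a, Plaur and Tek. Slide differences reuse the arrays that made the calls. For genes with no overlap between the groups, Lrrc15 among them, the sign was fixed in advance, so the count is no separate support. Cthrc1, a secreted protein of activated adventitial cells, was higher than in later aortas by 1.34 ± 0.43 (adjusted p = 0.0198), a call lost without dissected replicate 1 (adjusted p = 0.0942) or dissected replicate 2 (adjusted p = 0.0998). These were the 2 rises among 16 fibroblast and adventitial genes, near the 13.2% of all genes called higher (11.8% were lower). The 5 falls were Lum and Dcn, described above, dermatopontin (Dpt) at -1.04, Dpep1 at -0.87 and Fap, fibroblast activation protein, at -1.15, named after their values were seen. The falls numbered 2 without dissected replicate 2, 1 without dissected replicate 3 and 2 with slide as a block, and relative to saline aortas of the same day the list had none. Non-dissected 7 d minus later aortas gave 2 rises and no fall of fibroblast genes (median 0.34), against 3.93% of all genes higher. Dissected minus non-dissected 7 d aortas gave 1 rise and 3 falls (median -0.53), where 2.75% of all genes were higher and 4.78% lower. Itgbl1, an integrin beta-like matrix protein outside the lists, read 1.72, 2.75 and 0.20 in dissected aortas, against 2.96 to 6.51 (median 4.60) in later ones (difference -2.94 ± 0.75, adjusted p = 0.00396), a call lost without dissected replicate 3 (adjusted p = 0.0673). Ecm2, an extracellular matrix protein, differed by -2.42 ± 0.50 (adjusted p = 0.000607), with a second probe at -0.38, and Htra4, a serine protease of the HtrA family, by -2.35 ± 0.58 (adjusted p = 0.00305), well above background on 1 of 3 dissected arrays.

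In the TGF-beta family Tgfb1 was higher, whereas a BMP ligand and several receptors were lower. Tgfb1 read 1.36, 1.14 and 0.95 in dissected aortas, against -0.27 to 0.87 (median -0.01) in later aortas, with no overlap (difference 1.10 ± 0.16, adjusted p = 1.32e-05; dissected minus non-dissected 0.75, adjusted p = 0.0119). Bmp6, a BMP ligand that signals in endothelium, read 0.74, 0.47 and 0.42 in dissected aortas, against 1.23 to 4.06 (median 2.47) in later aortas, with no overlap (difference -1.87 ± 0.33, adjusted p = 0.000129), although a second probe gave -0.47. Acvrl1 (ALK1), the endothelial type I receptor, was lower, at -1.16 ± 0.19 (adjusted p = 5.43e-05), with no overlap, and Bmpr2, its type II partner, at -1.22 ± 0.26 (adjusted p = 0.000887), with other probes as high as -0.04. Of 28 members 6 were lower and 2 higher (11.8% of all genes were lower and 13.2% higher). The second rise, Inhbb, was lost in 12 of the 14 fits that left out an array. Non-dissected 7 d aortas had 1 rise and no fall in this list, against 3.93% of all genes higher. Directly against them dissected aortas had 5 falls and 1 rise, where 4.78% of all genes were lower and 2.75% higher.

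**Figure D3:**
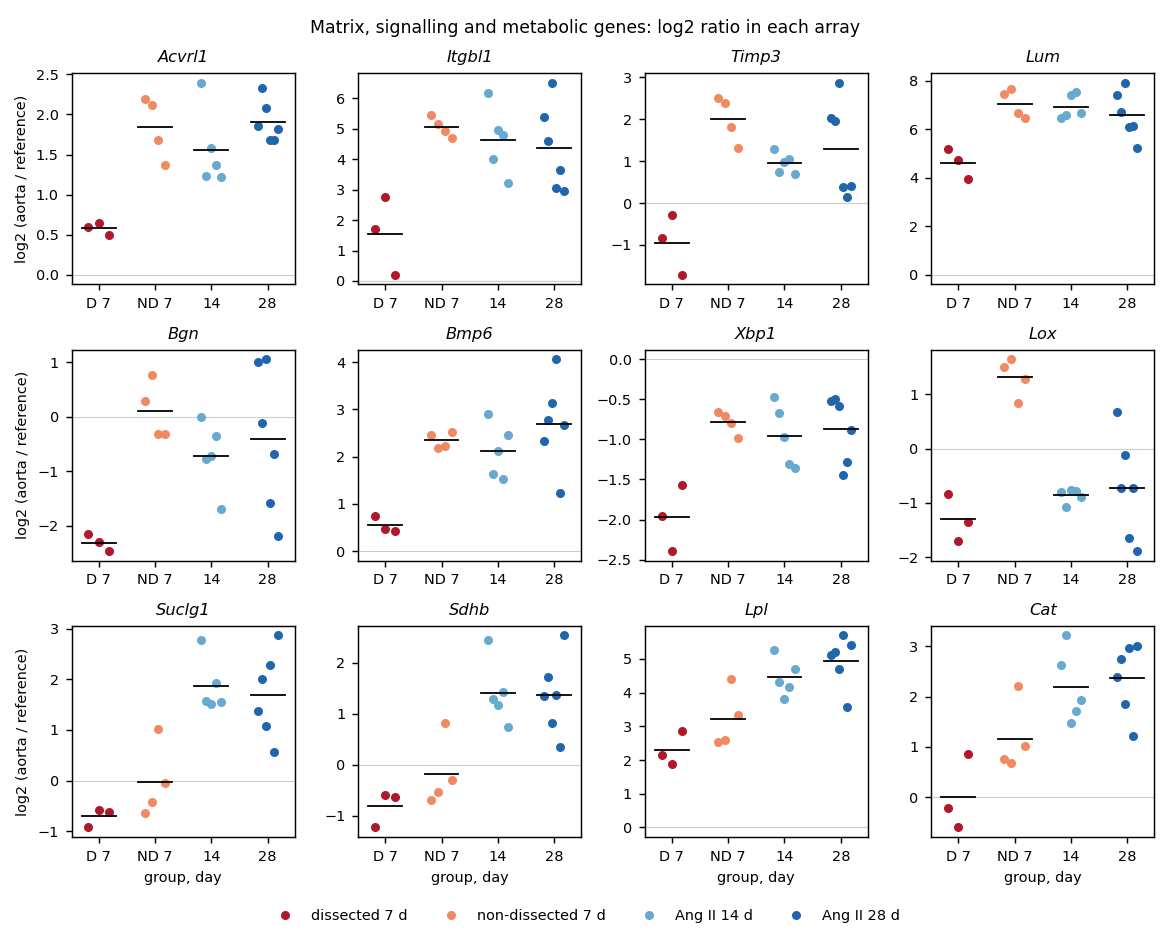
Log2 ratio of aorta over reference (vertical axis) in each array for 12 genes, groups as in the plot of higher genes, with bars at group means. For Itgbl1, Timp3, Lum and Bgn the non-dissected 7 d arrays sit with the later ones or above them, for Lox above all others, and for Suclg1, Sdhb and Lpl both 7 d groups reach below the later arrays.

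Of the 40 lists, oxidative phosphorylation had the most falls. Of its 30 genes 12 were lower in dissected aortas and none higher (11.8% of all genes were lower), at a median of -1.01; without dissected replicate 1 there were 5. Sdhb, the iron-sulphur subunit of complex II, fell to -1.23, -0.59 and -0.63 in dissected aortas, against 0.34 to 2.53 (median 1.35) in later aortas, with no overlap (difference -2.20 ± 0.54, adjusted p = 0.00288). The complex III subunits Uqcrfs1 and Uqcrc2 differed by -2.00 ± 0.51 and -1.70 ± 0.49, and cytochrome c (Cycs) by -2.04 ± 0.59 (adjusted p = 0.00425, 0.0104 and 0.0101, in that order). Uqcrc2 lost its call without dissected replicate 1 (adjusted p = 0.113), and Cycs without dissected replicate 1 (adjusted p = 0.117). In the citric acid cycle Suclg1, of succinyl-CoA synthetase, read -0.93, -0.59 and -0.61 in dissected aortas, against 0.57 to 2.87 (median 1.57) in later ones (difference -2.49 ± 0.53, adjusted p = 0.000777). Idh3a, of isocitrate dehydrogenase, differed by -2.46 ± 0.67 (adjusted p = 0.00725), a call lost without dissected replicate 1 (adjusted p = 0.0739). Gsta3, a glutathione transferase, had the largest fall by the naming rule, at -1.38, -1.27 and -0.82 in dissected aortas, against 0.42 to 5.21 (median 1.72) in later ones (difference -3.19 ± 0.54, adjusted p = 7.86e-05). Catalase (Cat), the peroxisomal enzyme that splits hydrogen peroxide, was lower, at -2.27 ± 0.44 (adjusted p = 0.000323), with no overlap.

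Fatty acid oxidation had 8 falls and no rise among 20 genes (11.8% of all genes were lower), at a median of -1.21. Decr1, the reductase for unsaturated fatty acids, read 0.63, 0.45 and 0.67 in dissected aortas, against 1.01 to 3.16 (median 2.32) in later aortas, with no overlap (difference -1.75 ± 0.40, adjusted p = 0.00148). Etfa and Etfdh, which pass electrons from acyl-CoA dehydrogenases to ubiquinone, differed by -1.72 ± 0.53 and -1.93 ± 0.54, and Acsl1, which activates fatty acids, by -1.92 ± 0.53 (adjusted p = 0.0165, 0.00888 and 0.00796, in that order). Etfa lost its call without dissected replicate 1 (adjusted p = 0.12), Etfdh without dissected replicate 1 (adjusted p = 0.085), and Acsl1 without dissected replicate 1 (adjusted p = 0.0634) or dissected replicate 2 (adjusted p = 0.066). The list's calls numbered 1 without dissected replicate 1, 3 without dissected replicate 2 and 5 without dissected replicate 3; they were also 5 without 14 d replicate 1 or 4 or 28 d replicate 2, 4 or 6.

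Both lists had members lower in the non-dissected 7 d aortas too, in the comparison whose 382 falls over all genes became 41 and 21 without non-dissected replicate 1 or 2. There medians against later aortas were -1.09 for oxidative phosphorylation and -1.27 for fatty acid oxidation, with 7 and 3 falls (2.05% of all genes were lower), and no member of either list was called between dissected and non-dissected aortas. With slide as a block 2 and 1 members of the lists were called, at medians of -0.70 and -0.59, and within the second scan day 17 and 7, at -1.21 and -1.25. Within the 3 shared slides the medians were -1.32, -0.60 and -1.28 for oxidative phosphorylation and -1.41, -0.41 and -1.33 for fatty acid oxidation.

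White fat genes had 6 falls and no rise among 20 (11.8% of all genes were lower), and 1 fall without dissected replicate 1. The list median was -0.11, and the mean level was 3.58, 4.14 and 3.97 in dissected aortas, against 3.82 to 4.97 in later aortas. Between non-dissected 7 d and later aortas white fat genes had no rise and 6 falls (median -0.67), against 2.05% of all genes lower. Between dissected and non-dissected 7 d aortas they had no call (median 0.42). Lpl, lipoprotein lipase, read 2.15, 1.87 and 2.85 in dissected aortas and 3.59 to 5.69 (median 4.70) in later ones, with no overlap (difference -2.41 ± 0.46, adjusted p = 0.000301); a second probe gave -0.33. The fat synthesis genes Acly, Elovl6 and Fasn differed by -2.05 ± 0.53, -2.31 ± 0.67 and -2.30 ± 0.73 (adjusted p = 0.00447, 0.0108 and 0.0204, in that order), and Agpat2, an acyltransferase of triglyceride synthesis outside the list, by -2.45 ± 0.46 (adjusted p = 0.000204). Acly lost its call without dissected replicate 1 (adjusted p = 0.054), Elovl6 without dissected replicate 1 (adjusted p = 0.104), and Fasn without dissected replicate 3 (adjusted p = 0.0645) or dissected replicate 1 (adjusted p = 0.235). Adipoq, which marks fat cells themselves, did not pass and lay at 6.45, 6.58 and 6.32 in dissected aortas, against 5.09 to 6.31 (median 5.78) in later ones (0.65, adjusted p = 0.134). Brown fat genes had 2 falls of 12, against 11.8% of all genes. These were Fabp3 at -2.14 ± 0.51 (adjusted p = 0.00218) and Otop1 at -2.12 ± 0.70 (adjusted p = 0.0252), with Ucp1 at 0.22 (adjusted p = 0.78). Otop1 lost its call without dissected replicate 2 (adjusted p = 0.0861) or dissected replicate 1 (adjusted p = 0.122), and on the processed signals (-1.66, adjusted p = 0.147) and with the authors' series table (-1.62, adjusted p = 0.161). The brown fat genes had no rise and 2 falls in non-dissected 7 d against later aortas (median -0.56), and no call in dissected against non-dissected 7 d aortas (median 0.40).

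Marker genes of other tissues near the aorta varied between arrays. The mean level of 10 hepatocyte genes was 0.98 to 1.42 in dissected aortas, against 1.29 to 5.45 in later aortas. Skeletal muscle genes had mean levels of 0.04 to 0.31 in dissected aortas, against -0.21 to 4.25 in later aortas, with no member called. The sympathetic and chromaffin list had levels of 2.36, 4.46 and 2.07 in dissected aortas, against 0.36 to 5.02 in later aortas, and Th, tyrosine hydroxylase, differed by -0.28 (adjusted p = 0.83). For sympathetic and chromaffin genes, dissected minus non-dissected 7 d aortas gave 1 rise and no fall at a median of 2.19. Over all genes 2.75% were higher and 4.78% lower there. Non-dissected 7 d minus later aortas gave no rise and 9 falls of 15 at -2.46, against 2.05% of all genes lower. The 382 falls over all genes in that comparison became 41 and 21 without non-dissected replicate 1 or 2. Ahsg (fetuin A), a hepatocyte product, was lower, at -1.83 ± 0.57 (adjusted p = 0.0185), lost without dissected replicate 2 (adjusted p = 0.0823) or dissected replicate 3 (adjusted p = 0.0901) and on the processed signals (-0.72, adjusted p = 0.192) and with the authors' series table (-0.67, adjusted p = 0.229). Mup1, a major urinary protein whose near-identical copies one probe cannot separate, differed by -3.10 ± 0.66 (adjusted p = 0.00082), and the call was lost on the processed signals (-0.14, adjusted p = 0.848) and with the authors' series table (-0.0915, adjusted p = 0.902). Mb, myoglobin of striated muscle, differed by -2.58 ± 0.72 (adjusted p = 0.00829). With the levels of the white fat, brown fat, chromaffin and hepatocyte lists as covariates 4083 of the 18671 genes were called, 2108 higher and 1975 lower. Oxidative phosphorylation then had 11 falls and 1 rise of 30 at a median of -0.67, and fatty acid oxidation 4 falls of 20 at -0.68. Cell cycle had 27 rises of 36 at 1.00, neutrophils 9 of 13 at 1.43, and monocytes and macrophages 6 of 23 at 0.73. The part of these tissues in the falls was not tested beyond those values.

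Cholesterol synthesis and uptake had 6 falls and 1 rise among 22 genes (11.8% of all genes were lower), at a median of -0.87. Non-dissected 7 d minus later aortas gave no rise and 6 falls of cholesterol genes (median -0.81), against 2.05% of all genes lower. Dissected minus non-dissected 7 d aortas gave no call (median -0.02). Insig1, the sterol-responsive retention protein of SREBP, differed by -1.75 ± 0.41 and Pmvk, phosphomevalonate kinase, by -1.50 ± 0.31 (adjusted p = 0.00212 and 0.000659). Fdft1 (squalene synthase), at -1.18 (adjusted p = 0.032), lost its call without dissected replicate 3 (adjusted p = 0.173) or dissected replicate 1 (adjusted p = 0.179), and Idi1, at -1.08 (adjusted p = 0.0464), lost its call in 8 of the 14 fits that left out an array, with adjusted p up to 0.246 without dissected replicate 1. Without dissected replicate 1 the list had 2 falls, without dissected replicate 3 it had 3, as with slide as a block, and with the tissue covariates it had 2. Among 24 hypoxia and glycolysis genes 4 were lower and 1 higher (11.8% of all genes were lower and 13.2% higher). Between non-dissected 7 d and later aortas hypoxia and glycolysis genes had 1 rise and 5 falls (median -0.51). Over all genes 3.93% were higher and 2.05% lower there. Between dissected and non-dissected 7 d aortas they had no rise and 1 fall (median 0.24), against 4.78% of all genes lower. Gapdh was lower, at -0.998 ± 0.21 (adjusted p = 0.000794) with no overlap, Pgam1 at -0.94 ± 0.26 (adjusted p = 0.00726) and Bnip3, a mitophagy receptor, at -1.54 ± 0.38 (adjusted p = 0.00308). With slide as a block Pgam1 (adjusted p = 0.0797) and Bnip3 (adjusted p = 0.144) lost their calls, and Gapdh kept its call. Slc16a3 (MCT4), which exports lactate, went the other way, at 0.63, 0.86 and 0.64 in dissected aortas, against -2.16 to -0.11 (median -1.40) in later ones (difference 2.08 ± 0.29, adjusted p = 5.96e-06). Vegfa did not pass, at -0.21 (adjusted p = 0.616).

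**Figure D4:**
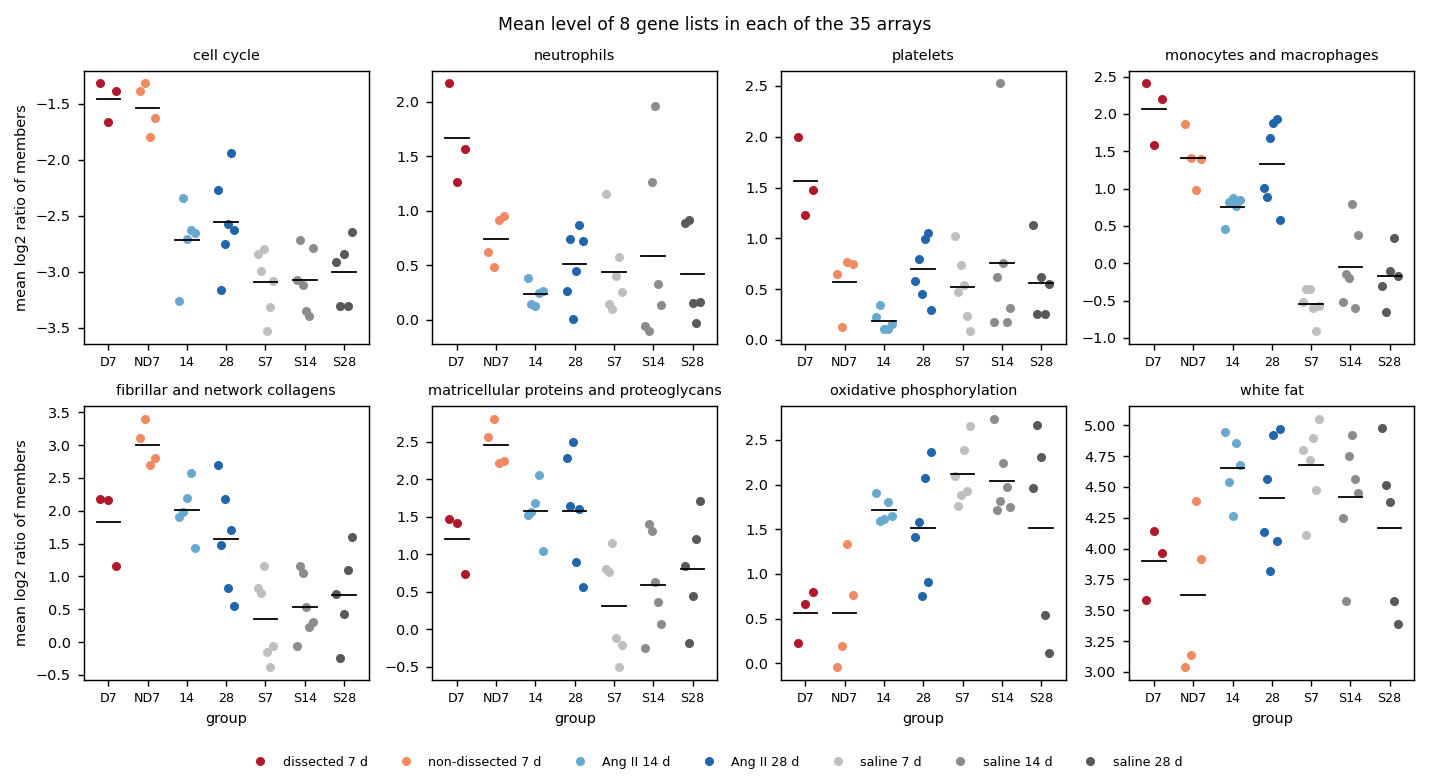
Mean log2 ratio of the members of 8 gene lists (vertical axis) in each of the 35 arrays, from dissected 7 d (D7, red) and non-dissected 7 d (ND7, orange) through Ang II 14 d and 28 d (blue) to saline at 7, 14 and 28 d (grey, S); bars are group means. Cell cycle levels are -1.66 to -1.32 in dissected and -3.26 to -1.95 in later aortas, and the platelet levels of the dissected arrays, 1.23 to 1.99, lie above those of all later arrays.

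Of 24 contractile genes of smooth muscle 1 was lower and none higher, at a median of -0.36 (11.8% of all genes were lower and 13.2% higher). Myh11 lay at 0.05 (adjusted p = 0.941), Acta2 at -0.34 (adjusted p = 0.766) and Tagln at -0.16 (adjusted p = 0.91). The contractile genes had no call in non-dissected 7 d against later aortas (median 0.64), and no call in dissected against non-dissected 7 d aortas (median -0.85). Endothelial genes had 5 rises and 1 fall among 20 (13.2% of all genes were higher and 11.8% lower). The median was 0.45, which became -0.09 with median centring in place of loess. There were 3 rises without dissected replicate 2 or 3, and 2 within the second scan day. For endothelial genes, dissected minus non-dissected 7 d aortas gave 1 rise and no fall at a median of 0.57, and non-dissected 7 d minus later aortas gave 1 rise and no fall at -0.09. Plvap, the diaphragm protein of fenestrated endothelium, read 4.71, 4.36 and 4.66 in dissected aortas, against 2.94 to 4.25 (median 3.75) in later ones, with no overlap (difference 0.91 ± 0.22, adjusted p = 0.00213). Cdh5 (VE-cadherin) was higher at 0.87 (adjusted p = 0.033), a call lost without dissected replicate 3 (adjusted p = 0.096) or dissected replicate 2 (adjusted p = 0.194); its second probe gave -0.90 and the mean of both -0.0163. Robo4, a guidance receptor of endothelium, passed at 0.79 (adjusted p = 0.0368) and lost its call in 6 of the 14 fits that left out an array, with adjusted p up to 0.156 without dissected replicate 1. Tek (TIE2), the angiopoietin receptor, was lower at -1.15 (adjusted p = 0.0144); its second probe gave 0.15. With the processed signals its difference was 0.0884 and with the authors' ratios 0.132, and the call was lost without dissected replicate 2 (adjusted p = 0.112).

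Of the renin-angiotensin genes 2 of 9 were lower (11.8% of all genes were) and none higher. Enpep, the aminopeptidase that turns Ang II into Ang III, differed by -1.49 ± 0.35 (adjusted p = 0.00191) and Ace by -1.03 ± 0.30 (adjusted p = 0.0107). The Enpep call was lost on the processed signals (-1.01, adjusted p = 0.0856) and with the authors' series table (-0.97, adjusted p = 0.102). The Ace call was lost without dissected replicate 1 (adjusted p = 0.0518) or dissected replicate 3 (adjusted p = 0.15), and on the processed signals (-0.28, adjusted p = 0.56) and with the authors' series table (-0.24, adjusted p = 0.634). Non-dissected 7 d minus later aortas gave no rise and 1 fall of renin-angiotensin genes (median -0.16), and dissected minus non-dissected 7 d aortas no call (median -0.35). Agtr1a, the receptor of the infused peptide, read 1.37, 3.83 and 1.04 in dissected aortas, against 2.14 to 6.01 (median 3.78) in later aortas, -1.95 (adjusted p = 0.114), which did not pass. In the coagulation list 4 of 17 were higher and 3 lower (13.2% of all genes were higher and 11.8% lower). It had 1 rise without dissected replicate 1 or 3, no fall without dissected replicate 2, and no rise with slide as a block. Between non-dissected 7 d and later aortas coagulation genes had 1 rise and no fall (median 0.44), against 3.93% of all genes higher. Between dissected and non-dissected 7 d aortas they had 1 rise and 4 falls (median -0.37), where 2.75% of all genes were higher and 4.78% lower. Thbd (thrombomodulin), the endothelial thrombin receptor, was lower, at -1.07 ± 0.31 (adjusted p = 0.00998; dissected minus non-dissected -1.67, adjusted p = 0.00439), and lost its call without dissected replicate 2 (adjusted p = 0.112). F3 (tissue factor), at -1.37 (adjusted p = 0.0484), lost its call in 11 of the 14 fits that left out an array, with adjusted p up to 0.147 without dissected replicate 3. F13a1, the transglutaminase subunit also made by macrophages, was higher by 1.14 ± 0.36, and F7 by 1.08 ± 0.34 (adjusted p = 0.0182 and 0.0192); F13a1 lost its call without dissected replicate 1 (adjusted p = 0.153) or dissected replicate 3 (adjusted p = 0.175), and F7 without dissected replicate 3 (adjusted p = 0.0526) or dissected replicate 1 (adjusted p = 0.147). Plaur, the urokinase receptor, was higher at 0.70 (adjusted p = 0.00891).

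Stress and secretory genes had calls in both directions, with falls at or near the share of all genes. Xbp1, the transcription factor of the unfolded protein response, read -1.96, -2.39 and -1.57 in dissected aortas, against -1.44 to -0.47 (median -0.88) in later ones, with no overlap (difference -1.06 ± 0.19, adjusted p = 0.000125; dissected minus non-dissected -1.19, adjusted p = 0.00151). Herpud1, of endoplasmic reticulum degradation, was lower, at -1.05 ± 0.18 and Dnajb9, a cochaperone, at -1.14 ± 0.21 (adjusted p = 6.5e-05 and 0.000201), while Pdia3, a disulphide isomerase, was higher by 0.97 ± 0.24 (adjusted p = 0.00292; 28 d replicate 3 was left out as a scanner outlier) and the chaperone Hspa5 did not pass, at -0.30 (adjusted p = 0.456). In all 6 of 26 members were higher (13.2% of all genes were) and 3 lower, near the 11.8% of all genes called lower. There were 2 and 3 rises without dissected replicates 1 and 3. The secretory genes had 9 rises and 1 fall in non-dissected 7 d against later aortas (median 0.47). Over all genes 3.93% were higher and 2.05% lower there. In dissected against non-dissected 7 d aortas they had no rise and 4 falls (median -0.27), against 4.78% of all genes lower. Among 18 immediate early genes Junb and Ier3 were higher, by 1.58 ± 0.37 and 1.12 ± 0.32, and Klf4 and Dusp1 lower, at -1.29 ± 0.26 and -1.64 ± 0.43, all with no overlap (adjusted p = 0.00174, 0.0106, 0.000563 and 0.00542, in that order). These 2 rises and 2 falls are shares at or below those of all genes (13.2% higher, 11.8% lower), and Ier3 lost its call without dissected replicate 3 (adjusted p = 0.0513) or dissected replicate 1 (adjusted p = 0.0664). The NADPH oxidase subunits Ncf4 and Cyba of phagocytes were higher by 1.42 ± 0.41 and 1.02 ± 0.34 (adjusted p = 0.0105 and 0.0277, in that order); Ncf4 lost its call without dissected replicate 1 (adjusted p = 0.0776), and Cyba without dissected replicate 3 (adjusted p = 0.0614) or dissected replicate 1 (adjusted p = 0.251). Oxidative stress genes in all had 5 rises and 3 falls of 24, the falls again near the 11.8% of all genes. The rises numbered 2 without dissected replicate 1 and 3 without dissected replicate 3. For oxidative stress genes, dissected minus non-dissected 7 d aortas gave 2 rises and no fall at a median of 0.16, and non-dissected 7 d minus later aortas gave no rise and 2 falls at -0.11.

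Smaller lists held few calls. Sox9, the cartilage transcription factor, was higher by 1.29 ± 0.28 with no overlap, and Runx2, of bone, by 0.85 ± 0.26 (adjusted p = 0.00104 and 0.0175). They were the only calls among 10 bone and cartilage genes (13.2% of all genes were higher). Runx2 lost its call without dissected replicate 3 (adjusted p = 0.0888) or dissected replicate 1 (adjusted p = 0.101). The clock genes Per1 and Clock were lower, at -1.01 (adjusted p = 0.0174) and -0.52 (adjusted p = 0.0368), 2 of 16 and near the 11.8% of all genes called lower; Per1 lost its call without dissected replicate 2 (adjusted p = 0.0558) or dissected replicate 3 (adjusted p = 0.113), and Clock without 28 d replicate 6 (adjusted p = 0.0509), 14 d replicate 2 (adjusted p = 0.0524), dissected replicate 1 (adjusted p = 0.156) or dissected replicate 2 (adjusted p = 0.363). Pmp22, a myelin protein, was lower at -1.14 (adjusted p = 0.0159), lost without dissected replicate 1 (adjusted p = 0.106) or dissected replicate 3 (adjusted p = 0.11), and Fdx1, a mitochondrial ferredoxin of steroid synthesis, at -1.05 (adjusted p = 0.0207), lost without dissected replicate 2 (adjusted p = 0.0677) or dissected replicate 1 (adjusted p = 0.123). Inmt, an indole methyltransferase, was lower, at -2.52 ± 0.49 and the caveolin Cav2 at -2.39 ± 0.33 (adjusted p = 0.000348 and 5.92e-06), both with no overlap, but a second probe of Cav2 gave 0.10. None of 9 kidney tubule genes was called, and 5 of them were not well above background on any array of 1 side.

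Taken relative to saline aortas of the same day, fewer genes were called, and the lists were counted again. Of the 18671 genes 1514 (8.11%) then had a higher and 1283 (6.87%) a lower Ang II minus saline difference in dissected than in later aortas. Cell cycle genes had 24 rises and no fall at a median of 1.22, monocyte and macrophage genes 12 rises at 1.41, neutrophil genes 5 rises at 1.37 and platelet genes 4 rises at 0.59. Oxidative phosphorylation had 12 falls at a median of -1.43 and fatty acid oxidation 7 falls at -1.80. Collagens had 1 rise at a median of 0.29, and the matricellular list had 2 rises and no fall at -0.06, against 1 and 4 without the saline term. No fall was called then among the fibroblast and adventitial (median 0.01), coagulation, elastic fibre, renin-angiotensin, circadian clock and immediate early genes, endothelial genes had 1 rise in place of 5, and interferon response genes had 2 rises and 3 falls in place of 6 and 2. In saline aortas Birc5 averaged -3.97 ± 0.30 at 7 d (SD, n = 6), -3.88 ± 0.46 at 14 d (n = 6) and -3.99 ± 0.33 at 28 d (n = 5), below every dissected array. Pf4 averaged -1.17 ± 0.62 at 7 d (SD, n = 6), -0.23 ± 0.80 at 14 d (n = 6) and -0.35 ± 0.61 at 28 d (n = 5) in saline aortas.

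Genes seen on the later side alone have a bound in place of a fold. The dissected arrays' signal was set at the higher of the lowest signal well above background and the probe's own, and the folds are those of group means. These signals are those of the aorta channel alone, and dye bias may enter them. Pkia, an inhibitor of protein kinase A, was at least 3.16-fold lower in dissected aortas, Dmd (dystrophin) at least 2.85-fold and Tlcd4 at least 2.32-fold lower. Their fitted adjusted p values were 0.00157, 0.00701 and 0.0183, in that order. Serpina3k, a liver serine protease inhibitor of a multigene family whose transcripts a probe may not separate, differed by -3.12 ± 1.14 (adjusted p = 0.0424). For it the bound from the aorta channel was larger than the difference in ratios, so no bound is given. None of these 4 was well above background on any dissected array, and all were so on the 11 later arrays. Serpina3k lost its call in 8 of the 14 fits that left out an array, with adjusted p up to 0.122 without dissected replicate 3, and Tlcd4 lost it without dissected replicate 2 (adjusted p = 0.0533), dissected replicate 3 (adjusted p = 0.058) or dissected replicate 1 (adjusted p = 0.0876).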

How the data were processed

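RNA of 35 suprarenal aortas was measured on 2-colour Agilent arrays, aorta in Cy5 and reference in Cy3, per the labels' protocols. The submitters' processing notes name Agilent Feature Extraction 9.5.3.1 as the scanner software. The deposited scanner files give the authors' intensity per spot (mean signal, local background and processed signal) and a log10 ratio. The authors' series table holds log2 ratios; against the deposited log10 ratios it correlated at 0.986 to 1.00, with a slope near 3.32 and medians near 0. Of 45018 spots 1639 were controls, and 24375 of 41174 probes were named by accession, 6301 by current and 2426 by older symbol through RefSeq, while 8072 kept the file's name.

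Mean intensity was background-corrected (normexp, offset 50) and normalized within arrays (loess) with limma 3.58.1 in R 4.3.3. Scanner-flagged local backgrounds distorted normexp on several arrays and were replaced by the array's median of unflagged ones. Flagged outlier spots were left out, which removed a value of 56 genes on the 14 arrays. Probes needed an aorta signal well above background on at least 3 of 35 arrays, and the brightest probe stood for its gene, leaving 18671 genes. One limma fit over 7 groups (28 residual degrees of freedom) gave the contrasts, with 14 d and 28 d weighted equally and Benjamini-Hochberg adjustment over all genes. Errors are SE unless named SD. The p-values measure the spread between aortas, 1 per array, and precision is limited by how many arrays there are. On data simulated for the main comparison (18671 genes) 66 of 100 genes changed by log2 1 and 94 of 100 changed by log2 2 were recovered. Of its 166 calls 6 were false. The simulated noise was normal and independent between arrays and no other gene was changed, so these shares need not hold for the real arrays.

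The 40 gene lists and the naming rule were chosen with earlier results of these data known. Named are the 15 largest rises and 15 largest falls without overlap, up to 4 called members per list, a fixed set of markers and the 5 largest bounds; other list members named with a value were picked after their values were seen. Some genes that the rule chose are not reported here. The replicate numbers in the titles were not taken to pair the samples. Calls were repeated with other background corrections, scalings, filters and probe rules, with array weights, with slide, scan day or tissue markers in the fit, and without each array. No dye swap was made, so a gene's dye bias stays in its ratio and cancels between groups only where it is the same on every array, which was not tested.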

Additional observations from a re-analysis of the deposited data

Results flagged for a closer look

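Single later aortas stood apart from their group in the mean level of a gene list, as 4 of 84 groups tested; chance flags about 1 in 20. The adrenal cortex list reached 1.73 in Ang II 14 d replicate 2, with the other 4 arrays of its group between 0.28 and 0.46. The kidney tubule list reached 1.51 in 28 d replicate 2, with the others between -0.04 and 0.13. The erythroid list was low in 14 d replicate 3, at 1.33, with the others between 1.52 and 1.56, and the monocyte and macrophage list in 14 d replicate 1, at 0.458, with the others between 0.770 and 0.873.

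The Ang II minus saline difference, tested as an interaction of group and treatment, differed between dissected 7 d and later aortas in 2797 genes. Among them Birc5 differed by 2.53 ± 0.37 (adjusted p = 7.64e-05) and Pf4 by 3.99 ± 0.58 (adjusted p = 7.79e-05) as dissected minus later.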

How the results depend on the processing

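Of 134 genes chosen for naming that were called, 63 stayed called under all 32 alternatives and 82 whichever of the 14 arrays was left out; array weights kept 134, median centring 108, slide as a block 83 and the fit without dissected replicate 1 kept 92. Signs turned for H2-Aa (0.0456 on processed signals, 0.0893 on the authors' series table), Tek (0.0884 and 0.132) and Cdh5 (-0.0163 with the mean of all probes). The 4664 calls of the main comparison became 7700 with array weights and 2744 with slide as a block, and ran from 2742 to 5314 with 1 array left out. Against 14 d the count became 1062 with slide as a block (1750 to 3461 with 1 array left out), and against 28 d it ran from 2894 to 5173 with 1 array left out. Non-dissected 7 d against later aortas gave 382 with slide as a block (230 to 1611), and dissected against non-dissected 7 d gave 312 (659 to 1329) and, on processed signals, 2719. The saline-adjusted count became 972 with slide as a block, 4283 on processed signals and 1407 to 3469 with 1 array left out. Between 28 d and 14 d processed signals gave 3 calls, and leaving out 1 array 0 to 6. Of 691 list members 203 were called (120 higher, 83 lower), 344 with array weights, 116 with slide as a block and 117 to 227 with 1 array left out. With the replicate number as a block the main comparison had 5097 calls, the 28 d against 14 d comparison 2 and the lists 229. Of 11 same-numbered pairs, correlations of deviations ran from -0.242 to 0.553, with 4 over 0.1. Such mixed values cannot settle whether the numbers pair the samples, and the numbers were not taken as pairs. The local background as given (4689 calls) and the fit without both arrays that stood apart (5354 calls, 4563 of the 4664 kept) were chosen after seeing the data. For these moves the cause was not tested. Signal over background limits 152 called genes to a bound, since no dissected array measured them.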
